A study of Arabidopsis thaliana with 12 samples.

Results

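The late-annotated miRNAs of Arabidopsis thaliana are those that miRBase added after the classical families and that carry a number of 4 digits. They were taken from the deposited table of small RNA levels as every bin whose annotation names an ath-miR number of 4 or more digits, leaving out miR2111 and miR2939, and the bins of each number and letter were added up. This gave 108 miRNAs with 87 different numbers in 139 bins, out of 273 miRNAs in 369 bins and out of 152484 bins in all. No number in the table had more than 4 digits. The reference annotation TAIR10.1 names 129 such miRNAs, and the other 21 were not analysed here.

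Small RNA was sequenced from inflorescences in 4 genotypes, with 3 libraries of each. The mutants heso1-1, urt1-1 and ntp4-1 were set against the wild type, and each comparison used the same 3 Col-0 libraries. HESO1 and URT1 are terminal uridylyltransferases, which tail the 3' ends of RNA with U, and NTP4 is the gene that the study's title names in the modification of the 3p and 5p strands of miRNA duplexes. The ecotype was Col-0 throughout, plants stood untreated at 22 °C in days of 16 h light and 8 h dark, and the replicates were described as biological. Whether a replicate was 1 plant or a pool is not given in the sources used here, and the table lists small RNA, so the mutated genes themselves could not check the labels.

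In plants a miRNA is cut by DICER-LIKE1 from a folded precursor as a short duplex, is methylated at its 3' ends by HEN1 and is loaded, as a single strand, mostly into AGO1, which prefers a 5' U. Transposons, in contrast, give rise to small interfering RNAs through DICER-LIKE3 and RNA polymerase IV, and AGO4, which binds those, prefers a 5' A. Conserved miRNAs come from precise cuts and stand as sharp isolated peaks of reads. Many late-annotated miRNAs were described from deep sequencing alone, and some lie in inverted repeats of transposons.

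The sequences below were read from the RefSeq TAIR10.1 genome at the annotated mature miRNA. They are written 5' to 3' with the seed, bases 2 to 8, in capitals. Shown first are the 3 most abundant miRNAs, of which miR5644 lies at chr5:16649996-16650015 (+) outside any gene body, miR5026 at chr4:7844612-7844632 (+) in an intron of the non-coding RNA AT4G13495, and miR5652 at chr1:23413402-23413422 (-) antisense to the coding sequence of AT1G63130.
miR5644: gUGGGUUGcggauaacggua
miR5026: aCUCAUAAgaucgugacacgu
miR5652: uUGAAUGUgaaugaaucgggc
Shown next are the mature sequences of the number families that recur in transposons. All 5 loci of miR8167 and all 4 loci of miR5635 have the same mature sequence within the number. Of the 6 loci of miR5645, 5 share the sequence given for miR5645f, and miR5645c has another.
miR8167f: aGAUGUGGagaucguggggaug
miR5635a: uGUUAAGGaguguuaacggug
miR5645f: aUUUGAGUcaugucguuaag
miR5645c: aACCUAUUuaacgacaugacu
The remaining sequences belong to miRNAs whose levels are described for single genotypes. miR8174 lies at chr3:16589431-16589451 (-) in the transposable element gene AT3G45253, miR8183 at chr3:11747799-11747819 (-) in the transcribed pseudogene AT3G30110 and miR8178 at chr4:18087285-18087305 (+) antisense to an intron of AT4G38760, a nucleoporin gene. miR5657 lies at chr5:9789642-9789662 (+) antisense to an exon of DEG14 (AT5G27660), outside its coding sequence, miR5012 at chr2:8432747-8432767 (+) outside any gene, and miR5653 at chr1:19026915-19026938 (-) in a transposable element. The 5p strand of miR3434 lies at chr5:7583305-7583324 (-) and its 3p strand at chr5:7583132-7583151 (-), in an intron of AT5G22770, which encodes alpha-adaptin, a subunit of a clathrin adaptor complex.
miR8174: aUGUGUAUagggaagcuaauc
miR8183: uUUAGUUGacggaauuguggc
miR8178: uAACAGAGuaauuguacagug
miR5657: uGGACAAGguuagauuuggug
miR5012: uUUUACUGcuacuuguguucc
miR5653: uGGGUUGAguugaguugaguuggc
miR3434-5p: aCUUGGCUgauucuauuauu
miR3434-3p: uCAGAGUAucagccauguga

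The levels are RPM, which are counts of reads divided by the depth of the library, in bins of 100 bp without strand. A value therefore holds every small RNA that falls in the bin, the mature miRNA and its neighbours alike. The steps between values gave library totals of 2761330 to 11191516 reads, so that 1 read was worth 0.0894 to 0.362 RPM. The listed bins held between 28.7% of these reads, in ntp4-1 replicate 1, and 67.5%, in Col-0 replicate 2. Apart from genotype the 12 libraries fell into 2 sets along the first principal component of all features other than these miRNAs (62.8% of the variance within genotypes). Replicate 1 of each genotype and urt1-1 replicate 3 made the first set and the other 7 libraries the second. No label names these sets. Markers of the tissue were present. The 3 pollen miRNAs were above 0 in all 12 libraries, as were 18 of 23 miRNAs of floral organs and meristems, and none was at 0 throughout. Their sums varied widely between libraries of a genotype. The ranges of heso1-1 and urt1-1 overlapped those of Col-0, while both sums in ntp4-1 lay below Col-0 without overlap. The pollen miRNAs summed to 126 to 2427 RPM in heso1-1, 347 to 2072 in urt1-1, 289 to 853 in ntp4-1 and 1485 to 2854 in Col-0. The floral and meristem miRNAs summed to 9445 to 31140 RPM in heso1-1, 6408 to 23860 in urt1-1, 2564 to 8413 in ntp4-1 and 12116 to 16710 in Col-0, and chloroplast bins, which stand for green tissue, to 25492 to 43247 RPM in heso1-1, 33253 to 49680 in urt1-1, 38792 to 65588 in ntp4-1 and 31129 to 42315 in Col-0. The part of these differences in the results below was not tested. In whole inflorescences fewer cells of a type and less RNA per cell cannot be told apart.

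The late-annotated miRNAs were low. Their median level over the 12 libraries was 2.02 RPM, within a range of 0.151 to 90.7 RPM, while 79 conserved miRNAs had a median of 20.5 RPM and 80 young three-digit miRNAs, with numbers of 400 and above outside the conserved families, had a median of 3.61 RPM. No late-annotated miRNA averaged 100 RPM or more and 12 averaged at least 10 RPM, against 23 and 54 of the conserved miRNAs. A mean under 1 RPM was found for 31 of the 108, and 70 were above 0 in all 12 libraries. All of them together made up 233 to 746 RPM per library, or 0.0813% to 0.120% of the listed reads, with the lowest sum in ntp4-1 replicate 1. The 3 most abundant miRNAs held 32.3% of the summed level and the first 10 held 50.4%.

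**Figure D1:**
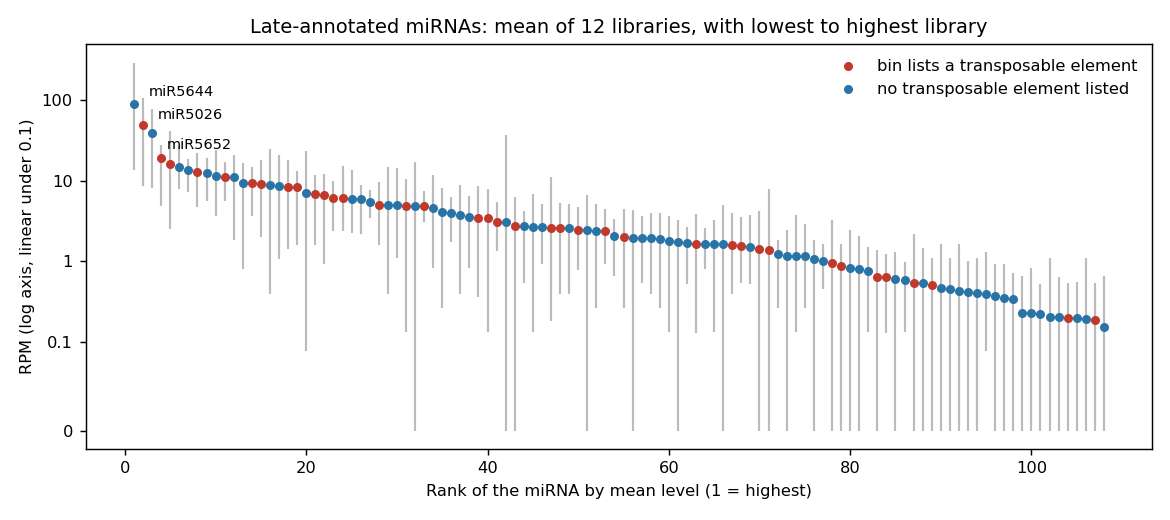
Mean RPM of each of the 108 late-annotated miRNAs over 12 libraries, ranked, on an axis that is logarithmic above 0.1 RPM. Grey lines run from the lowest to the highest library, and red points are miRNAs with a transposable element listed in a bin. The level falls from 90.7 RPM for miR5644 to 0.151 RPM at the last rank, and red and blue points mix along the whole range.

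The most abundant, miR5644, had 120.2, 51.4 and 14.8 RPM in heso1-1, 135, 27.1 and 122 in urt1-1, 84.8, 13.6 and 18.6 in ntp4-1, and 293, 108 and 100 in Col-0. In every genotype the libraries of the first set were the highest, which is the reverse of most other members. Of the RPM in its 2 bins and the 5 bins on each side, 99.7% lay in its own bins, so it stood as an isolated peak. The second, miR5026, had 20.9, 59.7 and 25.4 RPM in heso1-1, 35.6, 65.5 and 28.0 in urt1-1, 8.56, 76.4 and 107 in ntp4-1, and 21.04, 76.0 and 73.5 in Col-0. All genotypes overlapped, and the lowest library of each was of the first set. Its bin also lists the transposable element AT4TE34435, and 59.5% of the local RPM lay in it. The third, miR5652, had 23.8, 50.2 and 76.8 RPM in heso1-1, 43.5, 56.5 and 27.0 in urt1-1, 8.03, 17.8 and 21.02 in ntp4-1, and 33.5, 63.1 and 54.3 in Col-0. The 3 ntp4-1 libraries were below all others. AT1G63130, in which it lies, is annotated as a tetratricopeptide repeat-like protein, 5 of the 10 neighbouring bins were also listed, and 28.7% of the local RPM lay in the bin of miR5652. The next 7 in rank were miR5645f (19.2 RPM over the 12 libraries), miR8167f (16.0), miR5995b (14.9), miR4228 (13.7), miR5665 (12.8), miR8183 (12.4) and miR5642b (11.5). Of these 7, miR5645f, miR8167f and miR5665 had a transposable element in their bins.

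A transposable element was listed in a bin of 38 of the 108 late-annotated miRNAs (35.2%). The same held for 0 of 79 conserved miRNAs, for 12 of 80 young miRNAs (15%) and for 65.3% of all bins of the table. Of the 38, 32 had no gene body in the bin and 6 did. Those 6 were miR5026, miR5635d, miR8174, miR8178, miR5014a and miR5646. Of the 70 without a transposable element, 30 lay in a gene body, 15 in a promoter only and 25 in none of these. The 38 with a transposable element had a median level of 2.92 RPM, the other 70 one of 1.75 RPM. No test was made of these differences, since miRNAs that share a sequence or a locus are not independent.

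The share of local RPM within a miRNA's own bins shows how far a peak stands out from its surroundings. Bins that are not listed counted as 0, and every listed bin had at least 12 reads over the 12 libraries. The median share was 41.5% for the late-annotated miRNAs, 85.2% for the young and 100% for the conserved miRNAs. Among the late-annotated it was 35.9% with a transposable element and 51.6% without. The own bins outweighed all neighbours together for 49 late-annotated miRNAs, and 17 had no listed neighbour at all. At the other end was miR5636, with 0.847% of the local RPM. It lies antisense to TAS1B, a locus that miR173 directs to make phased trans-acting siRNAs, and averaged 2.42 RPM amid 6 listed neighbours. Low shares were also found for miR5642a (0.921%) and miR5642b (6.38%), which have the same mature sequence and lie beside 18S ribosomal RNA genes.

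**Figure D2:**
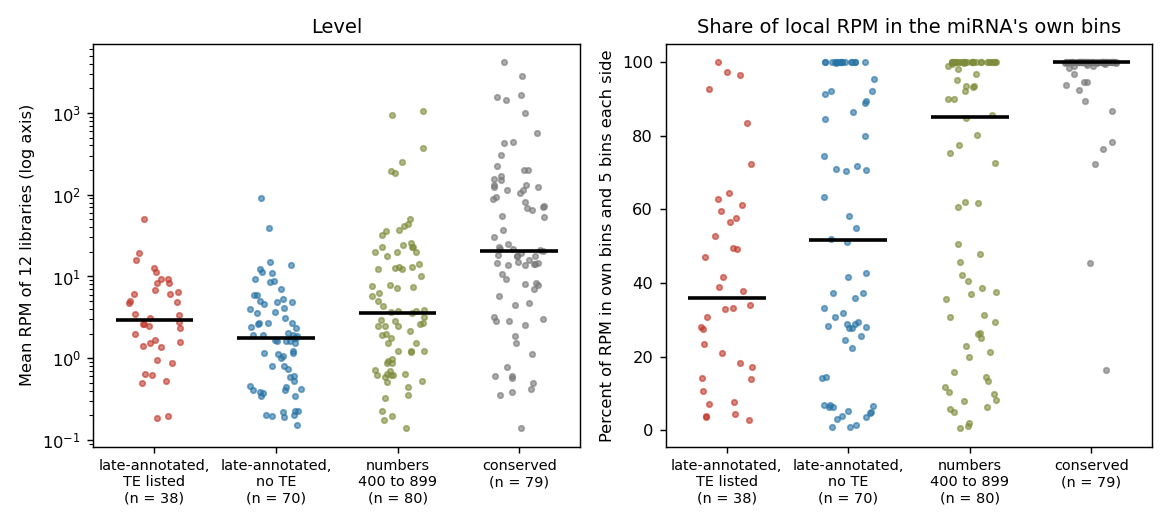
Mean RPM over 12 libraries (left, log axis) and percent of the RPM in a miRNA's own bins and the 5 bins on each side that lay in its own bins (right). Points are miRNAs and bars are medians. The medians of level are 2.92, 1.75, 3.61 and 20.5 RPM and those of the share 35.9%, 51.6%, 85.2% and 100%, from left to right.

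The annotated mature strands differed between the classes in their first base and in how often they occur in the genome. The 108 miRNAs have 125 mature sequences in bins of the table. Of these, 55 (44%) begin with U and 54 (43.2%) with A. In every class a sequence shared by several loci was counted once per locus. Among the late-annotated these include 5 loci of miR8167 and 5 of miR5645, which begin with A, and 4 of miR5635, which begin with U. An A was the first base of 14.3% of the mature sequences of conserved miRNAs and of 16.5% of those of young miRNAs, and a U of 55.6% and 69.7%. Both strands of a duplex were counted where both are annotated. That made 126 sequences for 79 conserved and 109 for 80 young miRNAs, so the classes differ in strands per miRNA and the shares are not of like strands. Most late-annotated sequences have 21 bases (90 of 125), 14 have 20, 14 have 22, 4 have 24, 2 have 23 and 1 has 19. An exact copy elsewhere in the genome was absent for 77 of the 125, and the largest number of copies was 15. Copies elsewhere were absent for 54 of 126 mature sequences of conserved miRNAs and for 91 of 109 of young miRNAs. The late-annotated sequences thus lay between the 2 other classes. More than 10 copies were found for 3 late-annotated, 4 young and 0 conserved sequences. How reads that match several places were placed is not given in the sources used here, so levels of single loci with identical sequences are uncertain.

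Of the 87 numbers, 11 had at least 2 letters. The 6 loci of miR5645 ranged in mean level from 0.628 RPM (miR5645c) to 19.2 RPM (miR5645f), the 5 loci of miR8167 from 0.534 (miR8167b) to 16.0 RPM (miR8167f) and the 4 loci of miR5635 from 3.09 (miR5635a) to 9.32 RPM (miR5635d). All 15 of these loci lie in listed transposable elements, and the mature sequence of miR8167 has 7 copies in the genome and that of miR5635 has 6. Since miR5645c has another mature sequence, the lowest miR5645 locus with the shared sequence was miR5645e, at 2.46 RPM. The bins of loci with the same mature sequence thus differed in level. These bins also hold other small RNA, so the differences are not those of the mature sequence alone. In the mean over the 12 libraries miR5645f, miR8167f and miR5635d led their families. The 6 loci of miR5645 together had 26.2, 41.1 and 29.0 RPM in heso1-1, 26.8, 42.2 and 22.7 in urt1-1, 10.5, 50.2 and 47.5 in ntp4-1, and 30.7, 46.7 and 39.5 in Col-0. The groups overlapped, with ntp4-1 replicate 1 the lowest library. The 5 loci of miR8167 together had 15.7, 36.3 and 54.0 RPM in heso1-1, 10.4, 34.4 and 8.04 in urt1-1, 4.21, 27.6 and 25.4 in ntp4-1, and 12.1, 28.3 and 26.1 in Col-0, again with overlap. Sums over the 4 loci of miR5635 averaged 29.1 ± 7.97 RPM in heso1-1, 22.6 ± 7.69 in urt1-1, 20.7 ± 8.46 in ntp4-1 and 29.6 ± 10.3 in Col-0 (SD, n = 3). The loci of the other 8 numbers with several letters had means from 0.151 RPM (a locus of miR5630) to 11.5 RPM (miR5642b).

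**Figure D3:**
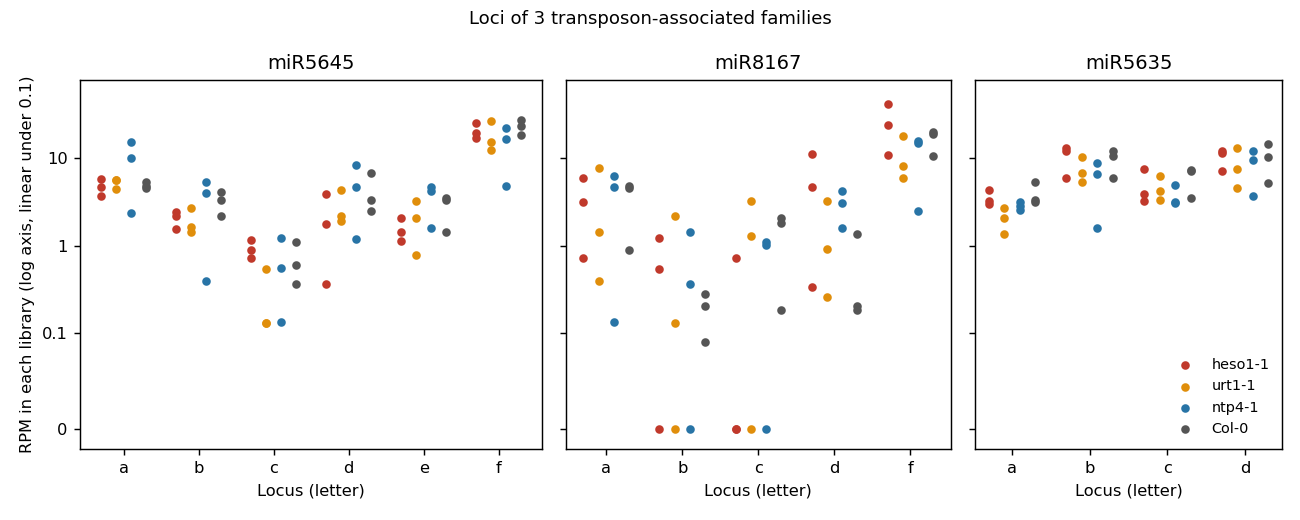
RPM in each library at the loci of miR5645, miR8167 and miR5635, on an axis that is logarithmic above 0.1 RPM. Each point is 1 library and colours are genotypes. The loci miR5645f and miR8167f stand above the others of their number, with means over 12 libraries of 19.2 and 16.0 RPM.

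A few seeds recur across numbers. The miR5995b and miR5595a sequences are identical and lie next to each other on opposite strands, at chr2:10026979-10026999 (+) and chr2:10027010-10027030 (-), which are the only copies in the genome. They are shown because both are named below.
miR5995b: aCAUAUGAucugcaucuuugc
miR5595a: aCAUAUGAucugcaucuuugc
In level the 2 bins differed. The bin of miR5995b averaged 11.5 ± 3.04 RPM in heso1-1, 14.2 ± 4.99 in urt1-1, 19.96 ± 10.5 in ntp4-1 and 13.8 ± 5.22 in Col-0 (SD, n = 3). The bin of miR5595a averaged 3.86 ± 1.54 RPM in heso1-1, 5.58 ± 1.16 in urt1-1, 7.09 ± 1.21 in ntp4-1 and 6.97 ± 1.62 in Col-0. The seed GAGAGAA is shared by miR1886.1 and miR5640, and GGAAGAA by miR5020a and miR5641.

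The study concerns the 2 strands of the duplex, and 11 late-annotated miRNAs had their 5p and 3p strands in separate bins. The share of the 3p bins in the sum of both was 95.2% for miR4228 and 84.1% for miR3932b over the 12 libraries, and 6.41% for miR3434 and 8.92% for miR5648. The share of miR4228 was 94.7% ± 5.99 in heso1-1, 97.4% ± 3.57 in urt1-1, 91.2% ± 7.78 in ntp4-1 and 97.6% ± 0.766 in Col-0 (SD, n = 3). That of miR3434 was 12.8% ± 11.7 in heso1-1, 4.76% ± 8.25 in urt1-1, 6.04% ± 5.23 in ntp4-1 and 2.02% ± 3.50 in Col-0. For both miRNAs each mutant overlapped Col-0. The share of miR3932b was 85.7%, 66.7% and 50% in heso1-1, below the 87.5%, 87.5% and 92.3% in Col-0, while urt1-1 and ntp4-1 overlapped Col-0. The strands of miR5663 were near equal, at 51.6% ± 0.719 in urt1-1, 51.3% ± 4.84 in ntp4-1 and 49.0% ± 0.381 in Col-0, and the urt1-1 libraries, at 50.9% to 52.4%, lay above the Col-0 libraries, at 48.5% to 49.3%. In heso1-1 the share was 35.1% ± 30.4, and replicate 3 had 10.1 RPM in the 5p bin and 0 in the 3p bin. The bin with the 3p strand of miR2934 also holds miR782, a young miRNA on the opposite strand, so its reads cannot be assigned to a strand of miR2934. That bin held 12.5% and 20% of the RPM of both bins in the 2 ntp4-1 libraries that had reads, and 100%, 77.3% and 65.6% in Col-0. The sums behind these last shares were 0.914 to 1.62 RPM in ntp4-1 and 1.44 to 3.22 RPM in Col-0. The shares of miR2934 and miR3932b rest on a few reads. So do those of miR3434, whose 3p bin was at 0 in Col-0 replicates 1 and 2. The strands of miR5663 in urt1-1 and Col-0 also differed by only a few reads. In urt1-1 replicate 3 its 5p and 3p bins held 2.59 and 2.85 RPM, where 1 read was worth 0.130 RPM. In Col-0 replicate 1 they held 3.06 and 2.97 RPM, at 0.0899 RPM per read. No test was made of any share.

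The comparison of heso1-1 with Col-0 asked which of these miRNAs differ without HESO1, and none passed the test. miR5012 stood above Col-0 and miR8178, miR8183 and miR5595a below it in all 3 libraries. These are 1.33% and 4% of the 75 tested, where 1.29% of all features were above and 12.3% below. By limma on log2(RPM + 0.5), with Benjamini-Hochberg adjustment over all 43600 features with a mean of at least 1 RPM, 0 of the 75 late-annotated miRNAs tested passed an adjusted p of 0.05, where 0.0528% of all features did. At an unadjusted p under 0.05 there were 4 of them, and edgeR on whole reads also called 0. Going by the smallest p, miR5012 was the leading one above Col-0. It had 7.24, 13.4 and 6.16 RPM in heso1-1 and 2.25, 3.98 and 3.82 RPM in Col-0. The groups did not overlap, and the log2 fold change was 1.25 (SE 0.45, adjusted p = 0.775). Next came miR8167d, with 0.334, 4.74 and 11.2 RPM in heso1-1 and 0.180, 1.37 and 0.201 RPM in Col-0, and miR3434, with 2.56, 4.65 and 4.71 RPM in heso1-1 and 1.08, 1.92 and 3.32 RPM in Col-0. Both overlapped Col-0. In the other direction stood miR8178, with 3.01, 4.47 and 3.98 RPM in heso1-1 and 6.29, 9.74 and 8.84 RPM in Col-0, without overlap (log2 fold change -1.02, SE 0.41, adjusted p = 0.775). Taken as single bins, the bin of miR8178 with the smallest p had a log2 fold change of -2.03. The other 2 with the smallest p below Col-0 were miR5644 (log2 fold change -1.68, SE 0.68) and miR5595a (-0.82, SE 0.44). The value of miR5644 was -0.90 without heso1-1 replicate 3 and -2.38 without heso1-1 replicate 1.

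The comparison of urt1-1 with Col-0 had the same outcome, with 0 of 75 late-annotated miRNAs called by limma against 0.186% of 41863 features. At an unadjusted p under 0.05 there was 1, and edgeR called 0. That 1 was miR5657, which had 13.3, 21.1 and 10.4 RPM in urt1-1 and 3.15, 6.31 and 6.73 RPM in Col-0. All 3 urt1-1 libraries were above all Col-0 libraries, with 1.39 as the log2 fold change (SE 0.44, adjusted p = 0.682). After TMM scaling, which sets the libraries level on most features, it was the only late-annotated miRNA called (0.325% of features were), at a log2 fold change of 1.84 and an adjusted p of 0.0342, within a range of adjusted p from 0.00466 to 1.00 over all alternatives tried. In bins without strand, reads of miR5657 and of DEG14, a protease gene that it lies antisense to, cannot be told apart. miR5018, which lies antisense to a transcribed pseudogene, had 6.58, 11.6 and 4.67 RPM in urt1-1 and 0.809, 4.94 and 5.33 RPM in Col-0, and miR3434 had 2.71, 7.57 and 2.85 RPM in urt1-1. Both overlapped Col-0. The smallest p in the other direction belonged to miR2933a, with 0.129, 2.16 and 0.778 RPM in urt1-1 and 1.89, 3.84 and 2.11 RPM in Col-0 (log2 fold change -1.22, SE 0.56), miR5650 (-0.88, SE 0.43) and miR5635a (-0.81, SE 0.40).

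The late-annotated miRNAs miR5653 and miR5642a were listed at 0 in all 3 urt1-1 libraries. miR5653, a 24-base sequence with 2 copies in the genome, had 0, 1.88 and 2.54 RPM in heso1-1, 1.71, 1.82 and 4.20 RPM in ntp4-1 and 2.25, 1.51 and 1.01 RPM in Col-0. With 0 of 19161997 reads over the 3 urt1-1 libraries, a limit of 3 reads allows up to 0.157 RPM. The Col-0 mean of 1.59 ± 0.625 RPM (SD, n = 3) was 10.1 times that limit. The limit covers counting error only and not the spread between replicates, and heso1-1 replicate 1 was at 0 as well. It therefore sets no lower bound on the difference between the genotypes. miR5653 was also picked because it was at 0 in a whole group. The miRNA missed the filter of 1 RPM in that comparison. With the filter at 0.2 RPM its adjusted p by limma was 0.104, and without a filter 0.116. miR5642a was listed at 0 in 11 libraries, those of all 3 mutants included, and at 36.8 RPM in Col-0 replicate 3 alone. Its copy miR5642b was above 0 in every library, with 3.62 to 17.2 RPM in heso1-1, 5.41 to 12.1 in urt1-1, 5.66 to 10.97 in ntp4-1 and 10.4 to 23.8 in Col-0.

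**Figure D4:**
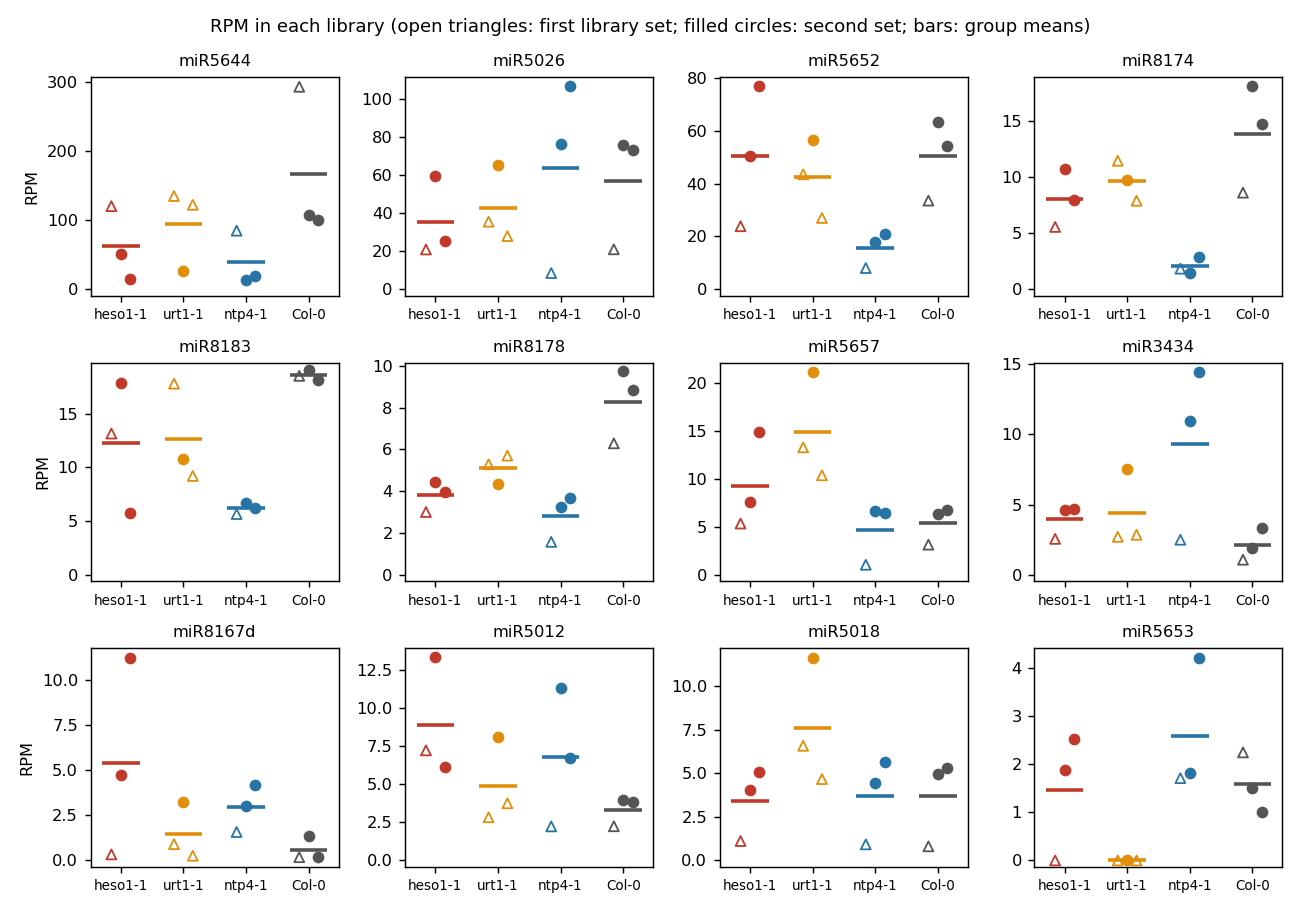
RPM in each library for 12 late-annotated miRNAs, by genotype. Each point is 1 library, open triangles mark the first and filled circles the second of the 2 library sets, and bars are means of 3 libraries. In ntp4-1, miR8174 lies at 1.42 to 2.92 RPM and miR8183 at 5.66 to 6.69 RPM, below all Col-0 libraries, and miR5653 is at 0 in the 3 urt1-1 libraries.

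In ntp4-1, the mutant of the gene in the study's title, no late-annotated miRNA passed the test. Of the 78 tested, 13 (16.7%) were below Col-0 in all 3 libraries, against 28.6% of all features, and 1 was above, against 0.572%. The 13 include miR8174, miR5644, miR8183 and miR5652, and the 1 above was miR8167d. By limma 0 of 78 late-annotated miRNAs passed, against 0.0757% of 39653 features. At an unadjusted p under 0.05 there were 10, and edgeR called 0. With the replicate number as a block, 15 of the 78 (19.2%) passed, against 27.6% of all features, so the share among these miRNAs was no higher than that of the table as a whole. The pairing behind the block is uncertain, since ntp4-1 replicate 3 correlated best with a Col-0 library of another number. The 15 were 3 above Col-0 (miR2112, miR3434 and miR8167d) and 12 below (miR2933b, miR2934, miR3932b, miR5642a, miR5644, miR5652, miR5659, miR5665, miR8173, miR8174, miR8178 and miR8183). Among all features 0.845% were called above and 26.8% below. The call of miR5642a rests on Col-0 replicate 3 alone, and 1 of the 2 bins of miR2934 is shared with miR782. With the library set as a term in place of the block 16 passed, 3 above and 13 below, and with TMM scaling and the set 6 passed, 5 above and 1 below, so that the balance of directions depends on the scaling. Without ntp4-1 replicate 1, the library with the lowest share of listed reads, 7 of 79 passed, against 6.74% of features. Of these 7, 6 were among the 15.

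The smallest p was that of miR8174. It had 1.84, 1.42 and 2.92 RPM in ntp4-1 and 8.63, 18.1 and 14.8 RPM in Col-0. All ntp4-1 libraries were below all Col-0 libraries and also below all libraries of the other mutants. The log2 fold change was -2.47 (SE 0.53, adjusted p = 0.136, and 0.000122 with the block). Over all alternatives the adjusted p ranged from 0.000122 to 0.606. miR8174 has 7 copies of its mature sequence in the genome and lies in a transposable element gene. For miR5644, whose values are given above, the log2 fold change was -2.37 (SE 0.75, adjusted p = 0.188, and 6.42e-05 with the block), within a range from 6.42e-05 to 0.807. Without ntp4-1 replicate 1 it was -3.16. miR8183 had 5.66, 6.69 and 6.22 RPM in ntp4-1 and 18.5, 19.1 and 18.1 RPM in Col-0. The 3 libraries of each group lay close together and far from those of the other (log2 fold change -1.51, SE 0.48, adjusted p = 0.189, and 0.00894 with the block, in a range from 0.00483 to 0.788). No neighbouring bin was listed for miR8183. miR5652 was also below Col-0 without overlap, with a log2 difference of -1.71 (SE 0.56, adjusted p = 0.194). TMM scaling brought the log2 fold change to -1.64 for miR8174, -1.47 for miR5644, -0.65 for miR8183 and -0.83 for miR5652.

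Above Col-0 in ntp4-1 the smallest p was that of miR8167d, with 1.58, 3.04 and 4.20 RPM in ntp4-1 and 0.180, 1.37 and 0.201 RPM in Col-0. The groups did not overlap (log2 fold change 1.76, SE 0.59, adjusted p = 0.198, and 0.00428 with the block, in a range from 0.00428 to 0.606). Its bin held 4.28% of the local RPM. miR8167f, with the same mature sequence, had 2.50, 15.8 and 14.99 RPM in ntp4-1 and 10.8, 20.04 and 19.1 RPM in Col-0, with overlap. miR3434 had 2.50, 10.9 and 14.4 RPM in ntp4-1 and 1.08, 1.92 and 3.32 RPM in Col-0, where the first ntp4-1 library fell within the range of Col-0 (log2 fold change 1.71, SE 0.69, adjusted p = 0.244, and 0.00387 with the block, in a range from 0.00387 to 0.626). After TMM scaling the log2 fold change was 2.36 for miR8167d and 2.47 for miR3434. With a pseudocount of 0.1 that of miR8167d was 2.51, and without ntp4-1 replicate 1 that of miR3434 was 2.42. miR5012 had 2.24, 11.3 and 6.76 RPM in ntp4-1 and overlapped Col-0.

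Values of miR8178 and miR8183, which are named above for heso1-1 and ntp4-1, are set side by side for all genotypes. The means of miR8178 were 3.82 ± 0.743 RPM in heso1-1, 5.11 ± 0.706 in urt1-1, 2.83 ± 1.10 in ntp4-1 and 8.29 ± 1.79 in Col-0 (SD, n = 3), and those of miR8183 were 12.3 ± 6.09 RPM in heso1-1, 12.6 ± 4.57 in urt1-1, 6.19 ± 0.512 in ntp4-1 and 18.6 ± 0.494 in Col-0. The mutants share these controls, so the 3 comparisons are not independent. Counted over all tested, 1 of 75 late-annotated miRNAs was above and 3 below Col-0 without overlap in heso1-1, where 1.29% and 12.3% of all features were. In urt1-1 it was 1 above and 4 below of 75, against 1.15% and 14.7% of features, and in ntp4-1 1 above and 13 below of 78, against 0.572% and 28.6%. A moderated F test of any difference among the 4 genotypes called 0 of 77, against 0.381% of 39101 features, with 7 at an unadjusted p under 0.05 and 0 called by edgeR. With the replicate block miR8174 was called (adjusted p = 0.0241), where 1.55% of features were.

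As a list the late-annotated miRNAs had median log2 fold changes below 0 on the deposited scale, closer to 0 than those of all features, but the sign changed with the scaling and with single libraries. The median was -0.07 in heso1-1, -0.26 in urt1-1 and -0.34 in ntp4-1, and over all features tested it was -0.23 in heso1-1, -0.40 in urt1-1 and -0.75 in ntp4-1. For the conserved miRNAs it was 0.56 in heso1-1, -0.31 in urt1-1 and -0.49 in ntp4-1, and for the young 0.04, -0.20 and -0.43. Both classes were above all features in each mutant, here and after TMM scaling, so this is not particular to the late-annotated miRNAs. After TMM scaling the medians of these miRNAs and of all features were 0.13 and -0.04 in heso1-1, 0.15 and -0.02 in urt1-1 and 0.26 and -0.10 in ntp4-1, so that the direction of the list against 0 turned round with the scaling, while its median stayed above that of all features under both. On the deposited scale the median in heso1-1 was 0.21 once heso1-1 replicate 1 was left out, and 0.17 or 0.08 once the second or the third Col-0 library was. In urt1-1 it was 0.02 without urt1-1 replicate 3, -0.01 when the second Col-0 library was left out and 0.10 with the library set as a term. In ntp4-1 it was 0.20 without ntp4-1 replicate 1, with 44 above and 35 below Col-0. With all libraries and the deposited scale 34 were above and 41 below Col-0 in heso1-1, 24 and 51 in urt1-1 and 23 and 55 in ntp4-1. After TMM scaling the counts were 49 and 26 in heso1-1, 49 and 26 in urt1-1 and 49 and 29 in ntp4-1. As deposited, the medians of those with and without a transposable element were -0.14 and 0.00 in heso1-1, -0.36 and -0.12 in urt1-1 and -0.54 and -0.26 in ntp4-1. The medians of the late-annotated miRNAs are over those that passed the filter, 75, 75 and 78 of the 108, and describe these libraries only. Without the filter the medians of the 108 and of all features were -0.05 and -0.14 in heso1-1, -0.19 and -0.24 in urt1-1 and -0.28 and -0.35 in ntp4-1. Those with a transposable element then had -0.33 in urt1-1 and -0.41 in ntp4-1, below all features, and -0.11 in heso1-1, above them.

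**Figure D5:**
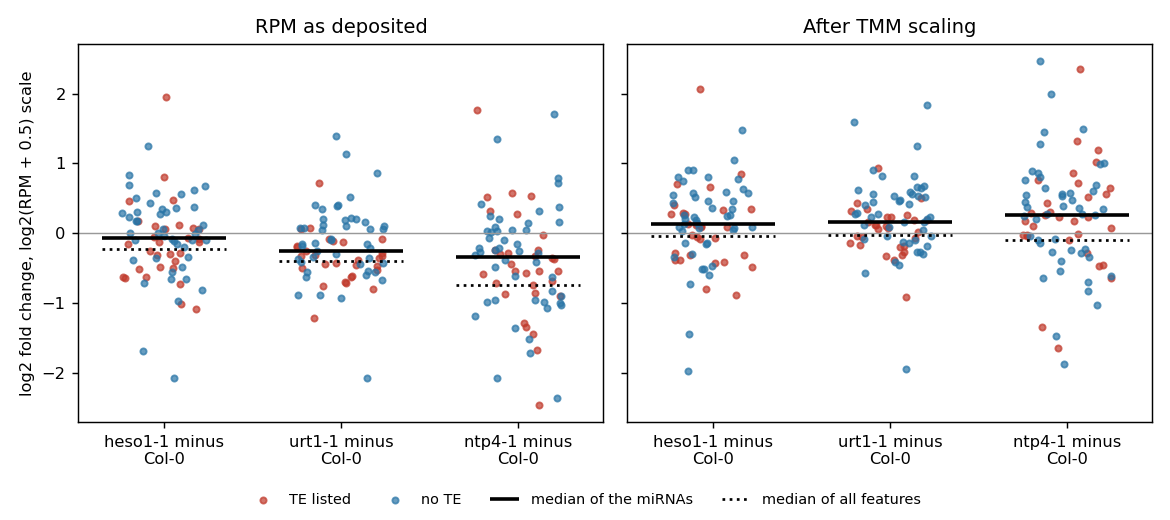
Log2 fold change of each late-annotated miRNA tested, in each mutant minus Col-0, as deposited (left) and after TMM scaling (right). Red points have a transposable element in a bin, solid bars are medians of these miRNAs and dotted bars medians of all features. The solid bars lie at -0.07, -0.26 and -0.34 on the left and at 0.13, 0.15 and 0.26 on the right, above the dotted bars in each case.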

How the data were processed

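The authors deposited 1 table of RPM in 100-bp bins with the genes, promoters, transposable elements and miRNAs placed in each. Per the labels' protocols, RNA came from inflorescences and libraries from the NEBNext small RNA kit. The aligner, the genome build and the placement of reads matching several places were not given in the sources used here. All 422 miRNA listings overlapped the miRNA of the same name in TAIR10.1, and 0 columns of values were left unused. The bins of each miRNA were added up, which gave 152388 features together with the bins without a miRNA. Groups were compared with limma 3.58.1 (trend on; R 4.3.3), applied to log2(RPM + 0.5), which understates changes of low values, over features that averaged 1 RPM or more in the libraries compared, two-sided, with Benjamini-Hochberg adjustment over all features and a threshold of 0.05. In all 12 columns 100% of values were whole multiples of 1 read within 1e-06. For Col-0 replicate 3 that step is close to a decimal rounding step, so its reads are less certain. edgeR 4.0.16 (quasi-likelihood) on these reads was an alternative and called 7, 53 and 0 features in heso1-1, urt1-1 and ntp4-1. The fits were also run on simulated data with a reduced spread and without the library sets. That run does not measure power or error in these data.

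Same-numbered libraries of a mutant and Col-0 were compared by the correlation of their deviations from the group means. It was 0.566, 0.251 and 0.188 for heso1-1 and 0.647, 0.381 and 0.321 for ntp4-1, above 0.1 in each pair, so the numbers were taken to pair these samples. The source of this pairing is the data, since no label states what a number shares. Replicate 3 of heso1-1 and of ntp4-1 correlated best with a Col-0 library of another number. The pairing by number is therefore uncertain, and so are the calls that rest on the block. In heso1-1 the block left the count at 0.

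The miRNAs named are those called, the 10 with the highest mean, the 3 with the smallest p in each direction per mutant, and those at 0 throughout a group but over 1 RPM on average in another. The 12 calls below and 3 above Col-0 with the block, and miRNAs cited for strands, seeds or local shares, were named after their values were seen. The miRNAs, lists and tests were chosen with earlier results of these data known. Alternatives covered the pseudocount, the filter, TMM scaling, the block, single bins, bins without a transposable element, 1 fit of all 12 libraries, edgeR and each library left out. The library set as a term, with and without TMM scaling, was added after seeing the data. Figures were drawn with matplotlib 3.10.9.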

Additional observations from a re-analysis of the deposited data

How the results depend on the processing

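The count of late-annotated miRNAs called in heso1-1 was 0 under every alternative run. In urt1-1 it was 1 after TMM scaling (miR5657), 4 with the library set as a term and 4 with the set and TMM scaling (miR3434, miR5018, miR5657 above and miR5644 below Col-0, against 4.08% and 3.28% of features), and 0 under the others, including each library left out. In ntp4-1 it was 15 with the replicate block, 1 in a single fit of all 12 libraries (miR8174), 16 with the set as a term (3 above and 13 below, against 33.0% of features), 6 with the set and TMM scaling (5 above and 1 below, against 3.35%) and 0 to 7 with 1 library left out. The 7 came without ntp4-1 replicate 1. In the test of any difference it was 1 after TMM scaling (miR3434), 1 with the replicate block, 10 with the set as a term (against 13.8%) and 6 with the set and TMM scaling (against 2.23%). The cause was not tested. For urt1-1 the replicate numbers did not pair the samples, with correlations of 0.391, 0.45 and -0.285, and the block left the count at 0. The block changed no call other than those given. Over the 18 log2 fold changes of the miRNAs with the smallest p, 292 recomputed values kept both direction and side of the threshold, 27 passed it in addition, and 0 changed sign. The 18 were picked by their p, and keeping the side meant staying uncalled. Several alternatives also leave the estimate itself unchanged. These counts therefore do not measure how stable the results are. Depth limits the lowest members most, since 1 read was worth up to 0.362 RPM.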

Other observations

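Some late-annotated miRNAs differed between the 2 library sets in every genotype. The examples were chosen after their values were seen. The mean of the second set minus the first, averaged over the genotypes on the log2 scale, had a median of 0.84 over the 108 miRNAs, 0.77 over all features at 1 RPM, 0.96 over the young and 1.56 over the conserved miRNAs. For 66 of the 108 the second set was higher in all 4 genotypes, and so it was for 51 of 79 conserved and 49 of 80 young miRNAs. The difference is thus not particular to the late-annotated miRNAs. The count was not made over all features. The largest difference was that of miR2112, which lies in an intron of SPPL4, a signal peptide peptidase-like gene. It had 0.557, 0.258, 0.648, 0.395 and 0.0899 RPM in the 5 libraries of the first set and 4.12 to 23.1 RPM in the 7 of the second. miR1886 had 0.395 to 2.59 RPM in the first set and 6.31 to 24.9 RPM in the second. Both stood alone, with 100% of the local RPM in their own bins.

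The reverse was found for 3 of the 108 in all 4 genotypes without overlap, among them miR5644 (log2 difference -2.05) and miR5636 (-2.01). It was also found for 1 of 79 conserved and 2 of 80 young miRNAs. This count was not made over all features either, so whether 3 of 108 is unusual is not known. In each genotype a single library stood against the others, so a lack of overlap is a weak criterion here. miR5636 had 2.90 to 6.65 RPM in the first set and 0 to 1.81 RPM in the second.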
